A study of Mus musculus with 69 samples.

Results

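Tmem176a, Tmem176b, Ms4a4c, Ms4a6b, Ms4a6c, Ms4a6d and Ms4a7 are 7 mouse genes for membrane proteins of the Ms4a family and its relatives, and they were followed here across every particle, dose and day of a lung exposure study. They were taken by symbol, and all 7 are among the 17628 genes that had a probe above background. Together they have 9 of the 41174 probes on the array, 2 each for Tmem176a and Ms4a7 and 1 for each of the others. The genes were chosen by their log2 ratios across these same groups, so their levels, differences and intervals are given as a description. Where a fit of all genes called a member, the call says how its difference compared with the spread between lungs, and because the same values chose the genes it is no independent evidence of an effect.

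RNA of whole lungs from 69 C57BL/6 mice was measured, with 1 mouse per array. Each mouse received a single instillation into the trachea of water (vehicle) or of 18, 54 or 162 µg of titanium dioxide nanoparticles. NRCWE-001 was unmodified, with no charge by its label, and NRCWE-002 was positively charged. Lungs were taken on day 1 or day 28, which gave 14 groups of 5 mice, except the vehicle group of day 28 with 4. All groups share the strain and the instillation, and no allele or transgene is named for any of them. Each lung RNA was labelled with Cy5 and read against a commercial mouse reference RNA labelled with Cy3, with no dye swap. A value is therefore the log2 ratio of lung to reference RNA, which can be compared between lungs for 1 gene but not between genes. The share of spots above background was 61.4% to 87.8% per array in the lung channel. As a check of the tissue, all 7 markers of lung epithelium, among them Sftpc and Scgb1a1, passed the filter, and their mean log2 ratio was 4.97 to 5.97 in the vehicle and 162 µg lungs.

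The MS4A proteins pass through the membrane several times. Their best known members are CD20, the B cell protein encoded by Ms4a1, and the beta chain of the IgE receptor, encoded by Ms4a2. The genes Ms4a4c, Ms4a6b, Ms4a6c, Ms4a6d and Ms4a7 lie in a cluster on chromosome 19 and are known mainly from macrophages and other myeloid and lymphoid cells. Tmem176a and Tmem176b are their relatives on chromosome 6. They encode cation channels of inner membranes and are known from dendritic cells, macrophages and lymphoid cells that depend on the receptor RORγt. In a whole lung, more cells of a type and more RNA per cell cannot be told apart.

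Tmem176a and Tmem176b are neighbours that are read away from each other. In RefSeq (GRCm38.p6) the nearest pair of their starts, Tmem176a on the plus strand at position 48841483 and Tmem176b on the minus strand at 48841374, leaves 108 bases between them, chr6:48841375-48841482. The stretch is shown because the levels of this gene pair moved together in the lungs below. It is upstream of both genes, is written for the plus strand, and has a GC content of 63.9%.

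Tmem176b to Tmem176a: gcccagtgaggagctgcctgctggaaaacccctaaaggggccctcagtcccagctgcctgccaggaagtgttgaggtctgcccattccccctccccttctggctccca

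Of the Ms4a members, Ms4a6b and Ms4a6c hold a run of 48 identical bases within the 250 bases before their starts. It leaves 70 bases to the start of Ms4a6b and 1 base to that of Ms4a6c. Among the other pairs of upstream stretches of Ms4a4c, Ms4a6b, Ms4a6c and Ms4a7, the longest shared run was 7 to 9 bases. The shared run is in capitals in both sequences, which are on the plus strand at chr19:11518309-11518558 and chr19:11469118-11469367. No promoter of Ms4a6d was in the table used.

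Ms4a6b: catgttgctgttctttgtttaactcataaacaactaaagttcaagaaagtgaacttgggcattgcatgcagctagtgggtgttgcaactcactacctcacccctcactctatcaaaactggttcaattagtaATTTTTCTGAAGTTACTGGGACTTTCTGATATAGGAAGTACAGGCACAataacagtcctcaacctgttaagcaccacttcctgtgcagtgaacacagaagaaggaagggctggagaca
Ms4a6c: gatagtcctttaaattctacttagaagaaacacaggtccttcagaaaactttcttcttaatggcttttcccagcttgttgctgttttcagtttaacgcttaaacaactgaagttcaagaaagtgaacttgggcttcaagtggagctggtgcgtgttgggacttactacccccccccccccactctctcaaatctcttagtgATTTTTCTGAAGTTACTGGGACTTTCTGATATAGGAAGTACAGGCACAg

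These genes are near copies in part, and how far each array probe reads its own gene alone was not tested.

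On day 1 the Tmem176 pair was higher in the lungs that had received the high doses. In vehicle lungs Tmem176a lay at log2 ratios of 1.09, 1.10, 1.03, 0.96 and 0.96. After 162 µg of NRCWE-001 its values were 2.16, 1.94, 2.19, 2.12 and 1.17. After 162 µg of NRCWE-002 they were 2.09, 1.98, 2.13, 1.84 and 1.70. At 162 µg no lung of either particle overlapped the 5 vehicle lungs, as was so in this direction for 1.97% of all genes with NRCWE-001 and 3.54% with NRCWE-002, and the fifth NRCWE-001 lung, at 1.17, stood far below the other 4 of its group. Tmem176b was likewise higher in both groups. Its vehicle lungs were at 0.56, 0.73, 0.50, 0.70 and 0.50. With 162 µg of NRCWE-001 it was at 1.86, 1.78, 1.75, 1.73 and 0.77, and with 162 µg of NRCWE-002 at 1.65, 1.51, 1.78, 1.54 and 1.00. The fifth NRCWE-001 lung was again the lowest, just above the highest vehicle lung.

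The difference from vehicle at 162 µg of NRCWE-001 was 0.89 ± 0.21 (SE, n = 5 and 5) for Tmem176a and 0.98 ± 0.22 for Tmem176b on the log2 scale, or 1.85-fold and 1.97-fold. At 162 µg of NRCWE-002 it was 0.92 ± 0.21 and 0.90 ± 0.22, or 1.89-fold and 1.87-fold. A gene is said to be called where the limma fit of all genes gave an adjusted p below 0.05. As a description, both genes lay past this threshold, and so were called higher, at 162 µg for both particles, where 0.442% of all genes were called higher for NRCWE-001 and 0.482% for NRCWE-002. These calls were close to the threshold. Leaving out 1 array at a time kept the difference of Tmem176a between 0.82 and 1.07 for NRCWE-001 and between 0.87 and 0.98 for NRCWE-002, but the count of the pair called ran from 0 to 2. For NRCWE-001 it was 0 without replicate 1, 3 or 4 at 162 µg and 1 without vehicle replicate 3, 4 or 5. For NRCWE-002 it was 0 without replicate 2 or 3 at 162 µg or vehicle replicate 4, and 1 without replicate 1 or 4 at 162 µg or any other vehicle lung. The 2 probes of Tmem176a gave 0.86 and 0.92 for NRCWE-001 and 0.91 and 0.93 for NRCWE-002, and their correlation over the 69 arrays was 0.99.

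At 54 µg the pair was higher than in vehicle in every NRCWE-002 lung and in most NRCWE-001 lungs. With 54 µg of NRCWE-002 on day 1, Tmem176a was at 2.01, 1.53, 1.82, 2.09 and 1.59 and Tmem176b at 1.70, 1.27, 1.29, 1.52 and 1.34. No lung of this group overlapped the vehicle lungs in either gene, which was so in this direction for 1.7% of all genes. The differences were 0.78 ± 0.21 and 0.83 ± 0.22, and neither gene was called in the fit of all arrays, where 0.0624% of genes were called higher. With the array slide as a fixed block they were 0.93 and 1.05 and both were called, beside 0.981% of all genes. With 54 µg of NRCWE-001 the 5 lungs did not move together. Tmem176a was at 1.34, 1.43, 1.60, 0.75 and 1.19 and Tmem176b at 1.11, 1.29, 1.42, 0.50 and 0.75, so that 4 of 5 lungs were above all vehicle lungs and 1 was at or below the lowest. The differences of 0.24 ± 0.21 and 0.41 ± 0.22 were not called, where 0% of genes were called, and Tmem176b, at 0.55, was called with the slide as a block, beside 0.686% of genes called higher. At 18 µg the differences lay from -0.11 to 0.13 for both genes and particles. Across the 3 doses on day 1, the F statistic for any dose effect put both genes past the threshold, as it did 0.698% of all genes with the unmodified particle and 0.823% with the charged one. The other 5 members were not past it. These values are from the groups that chose the genes, and nothing is read from them.

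**Figure D1:**
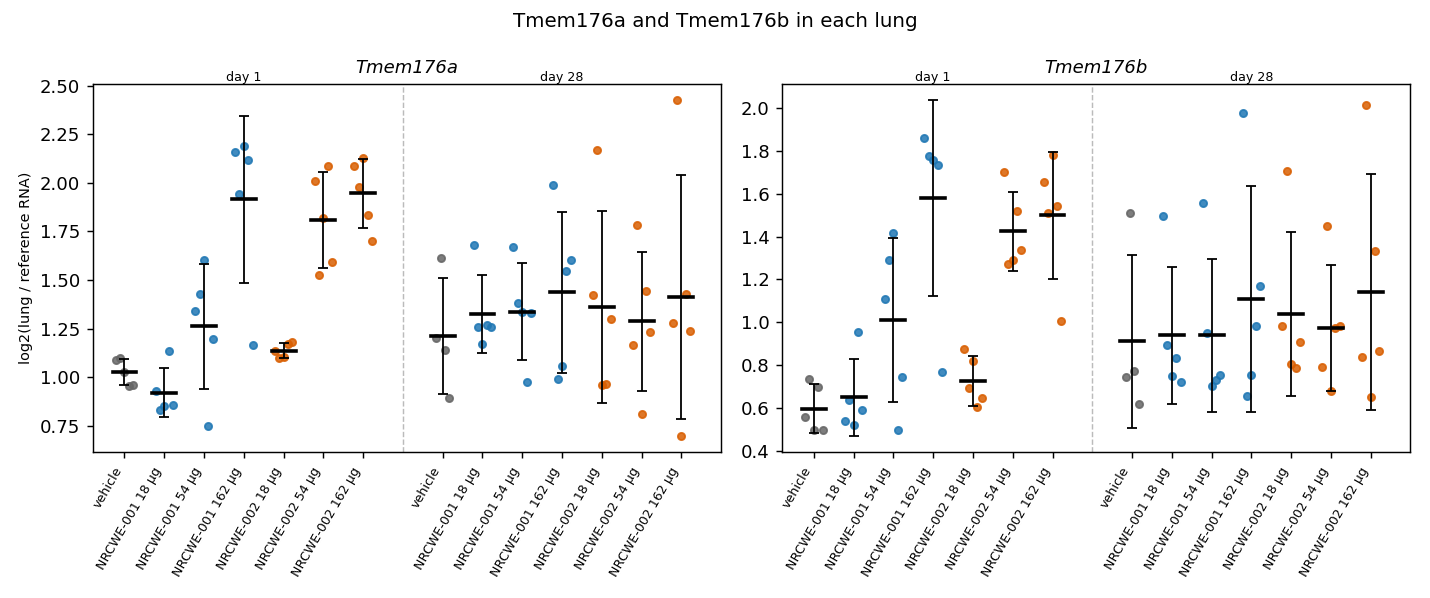
Log2 ratio of lung to reference RNA (vertical axis) of Tmem176a and Tmem176b in each of the 69 lungs, by group (horizontal axis), with vehicle in grey, NRCWE-001 in blue and NRCWE-002 in orange. Points are single lungs, and lines and bars are the mean and SD of 4 or 5 lungs. On day 1 all lungs at 162 µg of both particles and at 54 µg of NRCWE-002 lie above the vehicle lungs, and on day 28 the groups overlap.

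By day 28 the pair no longer stood apart from vehicle. The 6 differences lay between 0.08 and 0.23 for Tmem176a and between 0.03 and 0.23 for Tmem176b, each with an SE of 0.22 or 0.23, and none was called, where at most 0.119% of genes were called higher. At 162 µg the intervals (95%) were -0.21 to 0.66 for Tmem176a with NRCWE-001 and -0.23 to 0.64 with NRCWE-002. The effect of 162 µg on day 28 minus that on day 1 was -0.66 ± 0.30 and -0.72 ± 0.30 for Tmem176a with NRCWE-001 and NRCWE-002, and -0.78 ± 0.32 and -0.67 ± 0.32 for Tmem176b. In both comparisons of days limma called 0 of all genes, with 766 and 1181 genes at an unadjusted p below 0.05. The vehicle lungs of day 1 and those of day 28 shared no slide, and the part of the slides in these differences was not tested.

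The array slide moved with the pair on day 28. The slides each held up to 4 arrays, and the 7 arrays of slides 4 and 6, all of day 28, are all among the 10 arrays with the lowest median correlation with the others, at 0.852 to 0.936. The mean of Tmem176a and Tmem176b was 1.56 to 2.22 on these 7 arrays, including 1.56 in the vehicle lung among them, while the other 3 vehicle lungs of day 28 were at 0.97, 0.96 and 0.76. Of the spread within groups, 71.2% for Tmem176a and 73.5% for Tmem176b lay between slides, against 56.1% for Ms4a6b, 55.1% for Ms4a4c, 42.5% for Ms4a6c, 35.6% for Ms4a6d and 26.1% for Ms4a7. With up to 4 arrays per slide, some of this spread falls between slides even where slides have no effect, and that share was not computed. The part of the slides in these levels was not tested. Without the 7 arrays the day 28 differences at 162 µg were 0.22 and 0.08 for Tmem176a. On day 1 the pair was higher than vehicle in the 162 µg lungs that shared a slide with a vehicle lung. On slides 1, 3 and 5, which held both vehicle and 162 µg of NRCWE-001 on day 1, the difference was 0.85 to 1.16 for Tmem176a and 1.04 to 1.30 for Tmem176b. On slides 8 and 17, with NRCWE-002, it was 1.13 to 1.17 and 0.95 to 1.28. The other 162 µg lungs of day 1 shared no slide with a vehicle lung and are not in these values. Among them is the fifth lung of each particle, the lowest of its group in the pair.

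Ms4a6d, a myeloid member of the family, was the Ms4a gene with the largest difference at 162 µg on day 1. Its vehicle lungs were at 0.44, 0.56, 0.35, 0.49 and -0.02. With 162 µg of NRCWE-001 its values were 0.92, 0.96, 1.17, 1.90 and 0.41, and with 162 µg of NRCWE-002 they were 0.96, 1.20, 1.27, 1.25 and 0.51. In both groups 4 of 5 lungs were above all vehicle lungs and the fifth was within their range. The differences were 0.71 ± 0.28 and 0.67 ± 0.28, or 1.64-fold and 1.60-fold, and neither was called. On day 28 the differences at 162 µg were 0.73 ± 0.29 with NRCWE-001 and 0.41 ± 0.29 with NRCWE-002, also not called.

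Ms4a7, a gene known from macrophages, had its high values on day 28. On day 1 its 30 exposed lungs lay between -0.93 and 0.01 and its vehicle lungs between -0.44 and -0.12, and the 6 differences were -0.14 to 0.11. On day 28 the 4 vehicle lungs were at -0.46, -0.49, -0.26 and -0.42. With 162 µg of NRCWE-001 the 5 lungs were at 1.16, -0.54, -0.42, 2.43 and 1.97, and with 162 µg of NRCWE-002 at -0.87, 1.29, -0.53, 1.59 and 1.69. In each group 3 lungs were far above every vehicle lung. The other 2 were within or below the vehicle range. At 18 and 54 µg on day 28 the 20 lungs lay between -1.20 and 0.84, on both sides of the vehicle lungs. The differences, 1.33 ± 0.39 (n = 5 and 4) or 2.51-fold for NRCWE-001 and 1.04 ± 0.39 or 2.06-fold for NRCWE-002, were the largest of any member in any comparison with vehicle, and neither was called, where 0.034% and 0.00567% of genes were called higher. In 9 fits that each left out 1 array, the difference of Ms4a7 with NRCWE-001 was 0.95 to 1.69 and was called in 2. These were the fits without replicate 2 or without replicate 3, the pair of low lungs, at 1.69 and 1.66. Leaving out a low exposed lung raises the difference by construction, so nothing is read from these calls. The share of all genes called in these fits was not computed. On slide 6, which held vehicle and 162 µg of NRCWE-001, the difference was 1.65. On slides 2 and 9, which held vehicle and low lungs of NRCWE-002, it was -0.41 and -0.11. The 2 probes of Ms4a7 gave 1.38 and 1.28 for NRCWE-001 and 1.09 and 0.99 for NRCWE-002.

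Most of these lungs were also high in the other Ms4a genes. In the NRCWE-001 group of day 28 at 162 µg, Ms4a6d was at 1.36, 0.41, 0.39, 2.08 and 1.89, against 0.33 to 0.68 in vehicle. Ms4a6c was at 2.07, 0.95, 1.39, 2.55 and 2.59, against 1.38 to 1.69, and Ms4a4c was at 1.33, 0.52, 1.65, 2.97 and 3.01, against 1.18 to 2.16. Ms4a6b was at 3.14, 2.63, 3.39, 4.52 and 4.37, against 2.79 to 3.96. Replicates 4 and 5 were thus the highest in all 5 Ms4a genes. Replicate 1 was above the vehicle lungs in Ms4a7, Ms4a6d and Ms4a6c, but in Ms4a4c and Ms4a6b it was within their range and below replicate 3, a lung with low Ms4a7. In the NRCWE-002 group, Ms4a6d was at 0.40, 1.20, 0.21, 1.50 and 1.19 and Ms4a6b at 3.68, 4.23, 3.16, 4.23 and 4.17, with replicates 2, 4 and 5 highest in both. All 7 genes had a mean above vehicle at 162 µg of either particle on day 28, with a median over the 7 of 0.33 and 0.41, against -0.011 and -0.0095 over all genes, and 0 of the 7 were called. On day 1 the medians were 0.35 for both particles, against 0.0071 and 0.0124 over all genes, with 6 of 7 above vehicle for NRCWE-001 and 7 of 7 for NRCWE-002. These medians and counts are a description, since the genes were chosen by values of these same groups. The Ms4a genes also move together over the lungs, so the counts are not of 7 separate results.

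**Figure D2:**
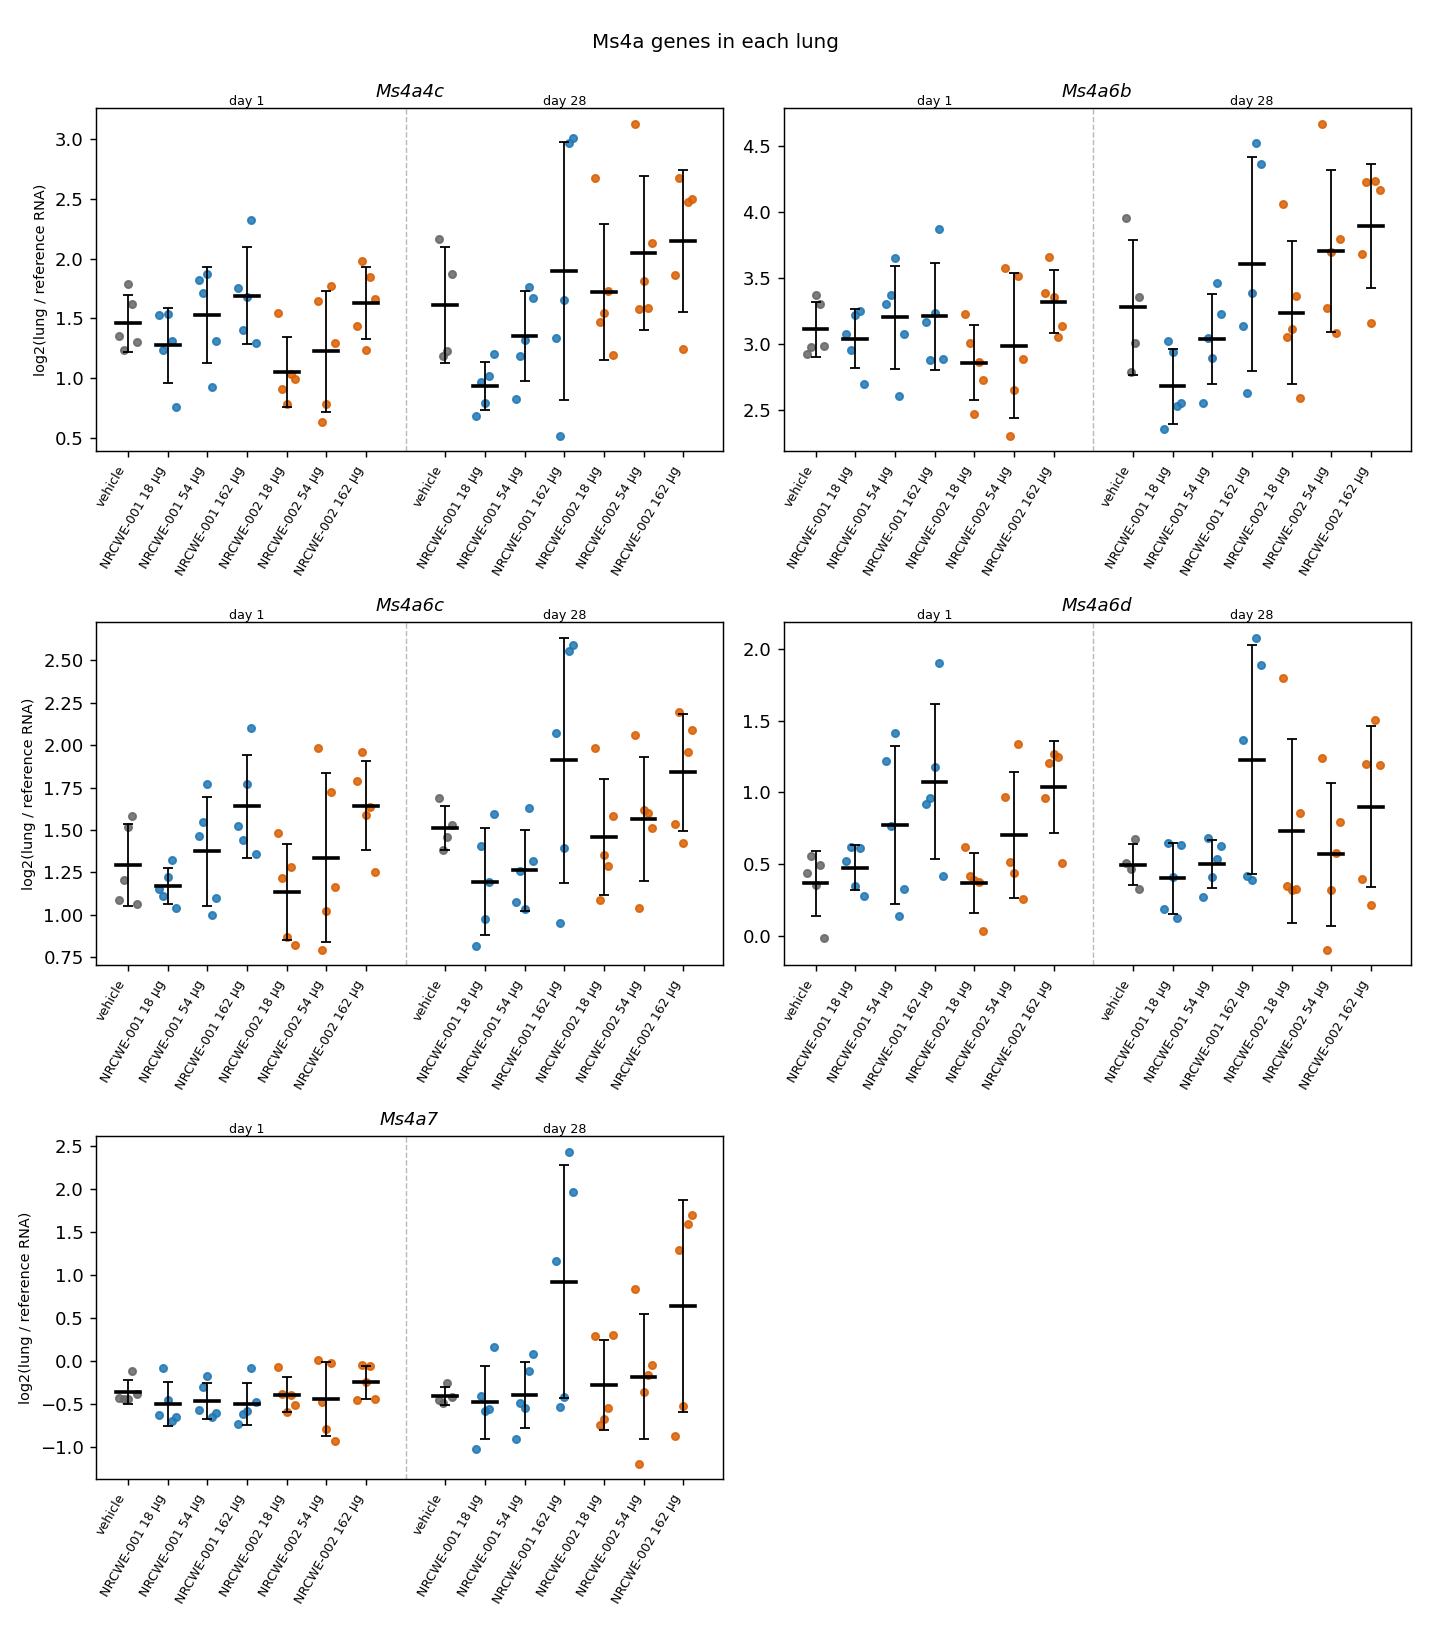
Log2 ratio of lung to reference RNA (vertical axes, 1 scale per gene) of the 5 Ms4a genes in each lung, by group (horizontal axis), with vehicle in grey, NRCWE-001 in blue and NRCWE-002 in orange. Lines and bars are the mean and SD. On day 28 at 162 µg, 3 of 5 lungs of each particle lie far above the vehicle lungs in Ms4a7 and the others do not.

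The lungs also differed in Saa3, which encodes an acute-phase serum amyloid A protein. Saa3 was picked for this comparison after its values were seen. It was at -3.78 to -3.04 in vehicle lungs of day 1 and at -3.74 to -3.46 in those of day 28. After 162 µg of the unmodified particle its day 1 values were 4.35, 3.72, 4.28, 5.14 and -3.51, and the fifth lung, at the level of vehicle, is the one with low Tmem176a and Tmem176b. At 162 µg of NRCWE-002 on day 1 it was at 3.49, 4.38, 4.41, 3.81 and -0.57, and the fifth lung was again the lowest in the Tmem176 pair. On day 28 it was at 0.40, -3.21, -3.41, 1.08 and 2.07 with NRCWE-001 and at -3.46, -0.76, -3.27, 0.79 and -0.65 with NRCWE-002. The 6 lungs with high Ms4a7 had Saa3 at -0.76 to 2.07, and the 4 with low Ms4a7 had it at -3.46 to -3.21. At 54 µg of NRCWE-001 on day 1, Saa3 was at 2.21, 1.58, 3.85, -3.68 and -3.94, and the 2 lungs at or below the level of vehicle were the lowest in the Tmem176 pair. Some other lungs of the lower doses did not split this way. With 54 µg of NRCWE-002 on day 28, the fourth lung had Saa3 at -0.17 and Ms4a7 at -0.17. The first lung of that group had Saa3 at -1.96 and Ms4a7 at 0.84. The first lung with 18 µg of NRCWE-001 on day 1 had Saa3 at -0.37 and a mean of the Tmem176 pair of 0.73. Whether the lungs with Saa3 near the vehicle level received their full dose is not given in the sources used here and was not tested. They are part of the means and differences of their groups above.

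**Figure D3:**
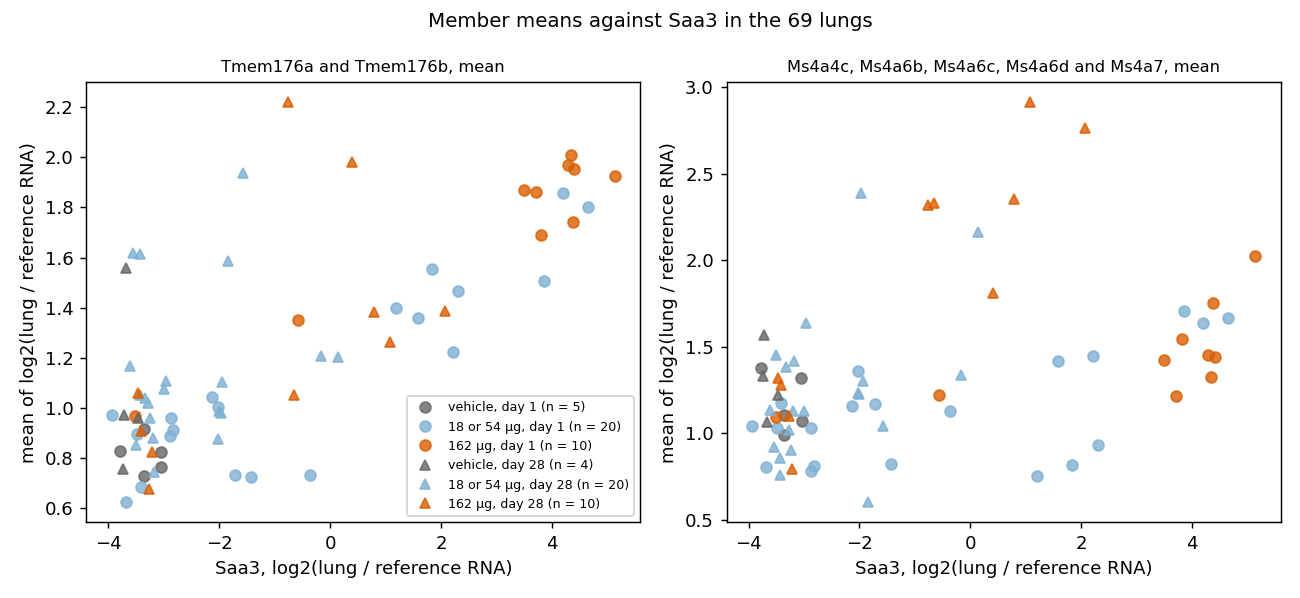
Mean log2 ratio of Tmem176a and Tmem176b (left) and of the 5 Ms4a genes (right) against the log2 ratio of Saa3 in the same lung, for 69 lungs, with circles for day 1, triangles for day 28 and colours for vehicle, the lower doses and 162 µg. The 162 µg lungs of day 1 with high Saa3 have the Tmem176 pair at 1.69 to 2.01, and the Ms4a mean is highest in lungs of day 28.

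Ms4a4c and Ms4a6b, the members with the closest likeness in the Ms4a group, were lowest after the lowest dose of the unmodified particle. With 18 µg of NRCWE-001 on day 28, Ms4a4c was at 0.68, 0.97, 0.79, 1.01 and 1.20, and 4 of the 5 lungs were below all vehicle lungs, which lay at 2.16, 1.18, 1.22 and 1.87. The difference was -0.68 ± 0.33, with -0.60 ± 0.30 for Ms4a6b, and neither was called, where 0.0737% of genes were called lower. The B cell gene Ms4a1 differed by -0.89 ± 0.33 (adjusted p = 0.384, limma) and the T cell gene Ms4a4b by -0.74 ± 0.27 (adjusted p = 0.371) in the same comparison. With the slide as a block the differences of Ms4a4c and Ms4a6b were -0.49 and -0.32. Ms4a6c, the remaining member, differed from vehicle by -0.32 to 0.40 across the 12 comparisons and was called in none.

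**Figure D4:**
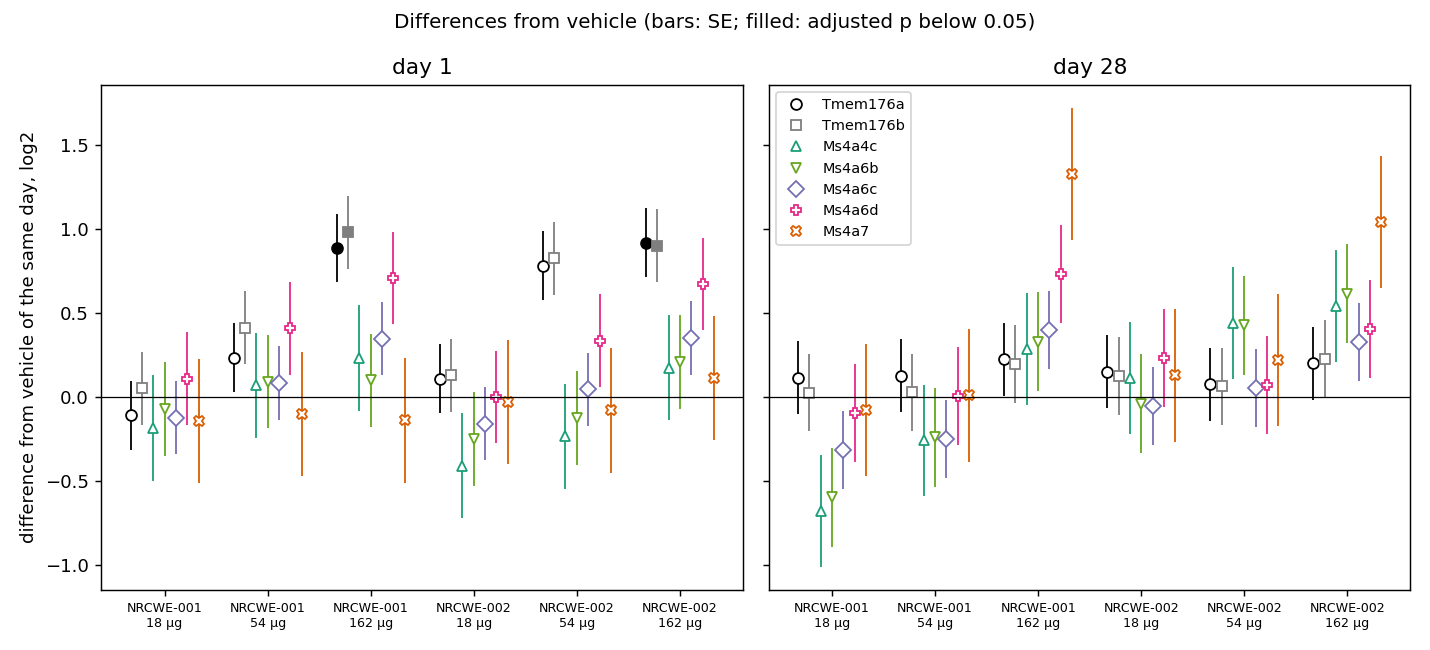
Difference in log2 ratio from the vehicle of the same day (vertical axis) for the 7 genes at each particle and dose (horizontal axis), day 1 left and day 28 right. Bars are the SE of the fit, and filled symbols are genes called at an adjusted p below 0.05, which are Tmem176a and Tmem176b at 162 µg on day 1. Ms4a7 has the largest differences, at 162 µg on day 28, and they are not filled.

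The 14 group means of each gene were put in order. Tmem176a was highest with 162 µg of NRCWE-002 on day 1 (1.95 ± 0.18, SD), then 162 µg of NRCWE-001 (1.91 ± 0.43) and 54 µg of NRCWE-002 (1.81 ± 0.25). The next group, 162 µg of NRCWE-001 on day 28, was at 1.44 ± 0.41, a gap of 0.37 that exceeded the pooled SD of 0.34. Its lowest groups were vehicle on day 1 (1.03 ± 0.07) and 18 µg of NRCWE-001 on day 1 (0.92 ± 0.13). Only 3 of the 13 steps between neighbours in this order were larger than the SD of the groups. Tmem176b had the same 3 groups on top, at 1.58 ± 0.46, 1.50 ± 0.30 and 1.42 ± 0.18, and for it and the 5 Ms4a genes 0 of the 13 steps exceeded the SD. Ms4a7, Ms4a6d and Ms4a6c were highest with 162 µg of NRCWE-001 on day 28, at 0.92 ± 1.36, 1.23 ± 0.80 and 1.91 ± 0.72. Ms4a4c and Ms4a6b were highest with 162 µg of NRCWE-002 on day 28, at 2.15 ± 0.59 and 3.89 ± 0.47, and lowest with 18 µg of NRCWE-001 on day 28, at 0.93 ± 0.20 and 2.68 ± 0.28.

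The particles were compared at matched doses, with 6 pairs of groups and 2 means over the doses. At 162 µg on day 1 the difference of NRCWE-002 from NRCWE-001 was 0.03 ± 0.21 for Tmem176a, with an interval (95%) of -0.38 to 0.44, and -0.08 ± 0.22 for Tmem176b, with an interval of -0.52 to 0.35. A difference of more than 0.52 in either direction is outside both intervals of this fit, which has no term for the slide. No slide held 162 µg of both particles on day 1, so in these values particle and slide cannot be told apart. Differences that lie within the interval of a gene remain possible for it. In the mean over doses on day 1 Tmem176a differed by 0.26 ± 0.12, with an interval of 0.03 to 0.50, and was not called, where 0.0113% of genes were called higher. At 54 µg on day 1 its value was 0.55 ± 0.21 higher with the charged particle, with an interval of 0.13 to 0.96. It was not called, where 0.00567% of genes were called higher, and was called with the slide as a block, at 0.60, beside 0.0681% of genes called higher. Only slides 12 and 14 held 54 µg of both particles on day 1. Their NRCWE-001 lungs were at 0.75 and 1.19 in Tmem176a, with Saa3 at -3.68 and -3.94, within or below the vehicle range. The part of these lungs in the difference was not tested. On day 28 Ms4a4c was higher with NRCWE-002 in the mean over doses, by 0.58 ± 0.18 (n = 15 and 15), and was the only one of the 7 past the threshold, again as a description, where 2.16% of all genes were called higher. Ms4a6b differed by 0.50 ± 0.16 and was not called. Ms4a4c was not called with the slide as a block, where its difference was 0.31 and 0% of genes were called higher, and the intervals of the other 5 genes ran from -0.38 to 0.47. At 162 µg on day 28 Ms4a7 differed by -0.29 ± 0.37, with an interval of -1.03 to 0.46.

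In the vehicle lungs, day 28 minus day 1 was 0.18 ± 0.22 for Tmem176a, 0.31 ± 0.23 for Tmem176b and -0.04 to 0.22 for the Ms4a genes. None of the 7 was called, and limma called 0 of all genes, with 1013 at an unadjusted p below 0.05. The vehicle lungs of day 1 and those of day 28 shared no slide, so in these values day and slide cannot be told apart. The effect of 162 µg on Ms4a7 was larger on day 28 than on day 1 by 1.47 ± 0.54 for NRCWE-001 and by 0.93 ± 0.54 for NRCWE-002, and these values were not called either.

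Over the 69 lungs the 7 genes fell into a pair and a group by their correlation, which is given as a description, since the lungs share slides and groups. Tmem176a and Tmem176b had a Pearson r of 0.94, and of 0.97 after slide means were taken out. Ms4a4c and Ms4a6b also had an r of 0.94. The other pairs of Ms4a genes ranged from 0.67, between Ms4a6b and Ms4a6d, to 0.84, between Ms4a6c and Ms4a6d. Between the groups, r ran from 0.13 for Tmem176b with Ms4a7 to 0.51 for Tmem176a with Ms4a6d.

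**Figure D5:**
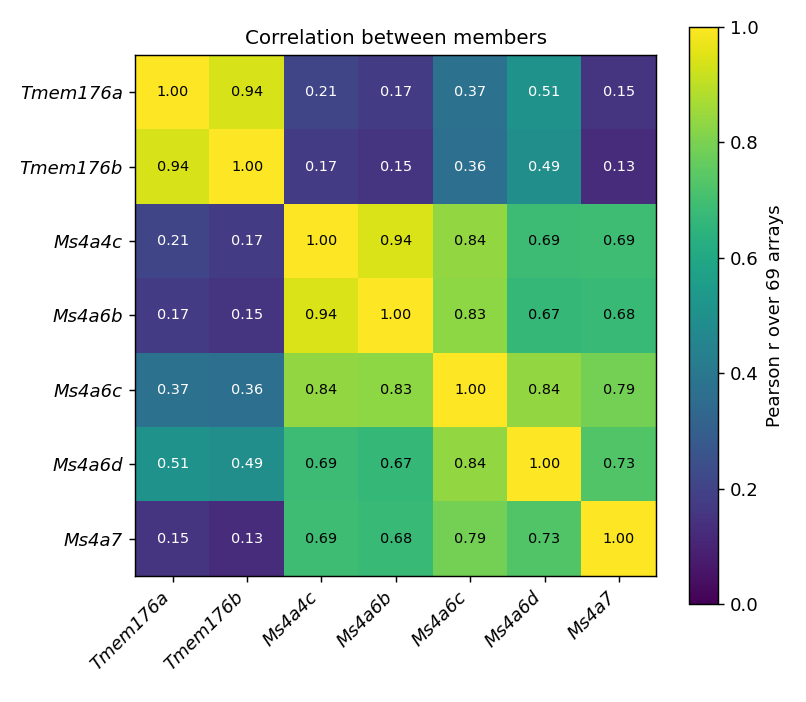
Pearson r between the log2 ratios of each pair of the 7 genes over 69 arrays, on a colour scale from 0 to 1. Tmem176a and Tmem176b form a pair at 0.94, the 5 Ms4a genes a block at 0.67 to 0.94, and r between the blocks is 0.13 to 0.51.

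The genes most like the 7 across the lungs were found by their Pearson r with the mean of the standardised members. They were Aif1 (0.92), a macrophage protein also known as Iba1, Sting1 (0.91), an adaptor for sensing DNA in the cytosol, Ly6f (0.90), Il4i1 (0.88), a secreted enzyme that breaks down amino acids, and Tmem106a (0.88). Without slide means 3 of these 5 remained among the top 5, and by Spearman correlation 1 remained, Aif1. For the Tmem176 pair the most alike genes were Bex3 (0.88), Gmppb (0.88), an enzyme that makes GDP-mannose, and Lsm4 (0.85), a splicing factor. For the 5 Ms4a genes they were Aif1 (0.94), Trim30d (0.94) and Icos (0.92), a receptor of activated T cells.

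Of the rest of the Ms4a family, 16 genes are in the RefSeq table and 10 passed the filter, among them Ms4a1, Ms4a3, Ms4a4b, Ms4a4d and Ms4a8a. In the 12 comparisons with vehicle limma made 0 calls among them, with 10 of 120 tests at an unadjusted p below 0.05. Their median difference was -0.06 to 0.07 across the 12. With 162 µg on day 1, Ms4a1 differed by -0.34 ± 0.31 (adjusted p = 0.999, limma) for NRCWE-001 and by -0.11 ± 0.31 (adjusted p = 0.985) for NRCWE-002. On day 28, in the mean over doses, Ms4a1 was higher with NRCWE-002 than with NRCWE-001 by 0.68 ± 0.18 (adjusted p = 0.0212, limma) and Ms4a4b by 0.47 ± 0.15 (adjusted p = 0.0482), as was Ms4a4c. With the slide as a block they had adjusted p = 0.785 and 0.958. In the same comparison Ccr2, Cd79b, Cd22, Cd8a and Ccr6 of the lists below were called higher, by 0.24 to 0.62, and Cd28 lower, by -0.20, and none of them was called with the slide as a block. The Gimap genes and Aoc1, which lie beside the Tmem176 pair, had 0 calls by limma in the 12 comparisons with vehicle for the 8 that were measured, with 9 of 96 tests at an unadjusted p below 0.05. Their median difference at 162 µg on day 1 was -0.0034 and -0.026. With the slide as a block Gimap5 was lower at 54 µg of NRCWE-002 on day 1, by -0.51 (adjusted p = 0.0293, limma).

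Markers of neutrophils and alveolar macrophages also differed at 162 µg on day 1. Of 7 neutrophil markers measured, 3 rose with NRCWE-001, which were Cd177 by 1.17 ± 0.27 (adjusted p = 0.0216, limma), Csf3r by 0.80 ± 0.19 (adjusted p = 0.0272) and Cxcr2 by 0.69 ± 0.16 (adjusted p = 0.0201), and 0 were called by limma with NRCWE-002, with 5 at an unadjusted p below 0.05. The mean of the list was 1.41 to 1.87 in vehicle lungs, 1.60 to 2.94 with NRCWE-001 and 1.82 to 2.57 with NRCWE-002. Of 8 markers of alveolar macrophages, 3 fell with NRCWE-001, Fabp1 by 1.74 ± 0.39 (adjusted p = 0.0145, limma), Ear1 by 1.30 ± 0.34 and Siglecf by 0.92 ± 0.24 (adjusted p = 0.0498 for both). With NRCWE-002 limma called 0 of the 8, with 4 at an unadjusted p below 0.05. The mean of this list was 3.11 to 3.76 in vehicle lungs, 2.35 to 3.39 with NRCWE-001 and 3.09 to 3.65 with NRCWE-002. Of 12 markers of monocytes and macrophages, only Cd14, a receptor for bacterial lipopolysaccharide, was called, by 1.33 ± 0.34 (adjusted p = 0.0489) and 1.58 ± 0.34 (adjusted p = 0.0110). The list of type 3 innate lymphoid and Th17 cells, with 4 of its 6 genes measured, had 0 calls by limma in the 12 comparisons and 2 of 48 tests at an unadjusted p below 0.05. The part of these cells in the Tmem176 values was not tested.

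On day 28 the 162 µg lungs with high Ms4a7 were high in the monocyte and macrophage list. In the alveolar macrophage list they lay below, within or above the vehicle range. The mean of the monocyte and macrophage list at 162 µg of NRCWE-001 was 1.82, 0.94, 1.28, 2.15 and 2.00, and at 162 µg of NRCWE-002 it was 1.42, 2.07, 1.21, 1.93 and 1.74, against 1.18 to 1.42 in vehicle. The 6 lungs with high Ms4a7 were at 1.74 to 2.15, above every vehicle lung, and the 4 with low Ms4a7 were at 0.94 to 1.42. None of its 12 genes was called in either comparison, where limma called only 8 and 1 of all genes. The mean of the alveolar macrophage list was 3.73, 2.84, 3.45, 3.46 and 3.24 with NRCWE-001 and 3.85, 3.05, 3.42, 2.81 and 2.73 with NRCWE-002, against 3.28 to 3.69 in vehicle. The 3 NRCWE-002 lungs with high Ms4a7 and the fifth NRCWE-001 lung were thus below every vehicle lung in it, as was the second NRCWE-001 lung, which was low in Ms4a7. The first NRCWE-001 lung, high in Ms4a7, was above every vehicle lung at 3.73, as was the first NRCWE-002 lung, low in Ms4a7, at 3.85. The T cell list was at 0.38, 0.15, 0.37, 0.89 and 0.83 with NRCWE-001 and at 0.54, 0.61, 0.28, 0.48 and 0.77 with NRCWE-002, against 0.28 to 0.69. The lists of dendritic cells, B cells, mast cells and basophils, lung epithelium and lung endothelium had 0 calls by limma at 162 µg on either day. In this order, 2 of 32, 2 of 28, 0 of 20, 2 of 28 and 2 of 16 tests had an unadjusted p below 0.05. Clec9a, a dendritic cell receptor, fell by 0.31 ± 0.07 at 18 µg of NRCWE-001 on day 28 (adjusted p = 0.0393, limma). The mean of 5 heart muscle genes varied from 0.27 to 3.87 among the vehicle and 162 µg lungs, with 0 calls against vehicle, and 3 liver genes had 0 calls. Over the 12 comparisons with vehicle, 5 of 60 tests of the heart genes and 3 of 36 of the liver genes had an unadjusted p below 0.05. The part of these lists in the Ms4a values was not tested.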

How the data were processed

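Lung RNA of 69 mice was hybridised with a common reference RNA to 2-colour Agilent mouse arrays. The deposited scanner output, which the authors obtained with the Agilent Feature Extraction software, held a median intensity and a local background per spot and channel on a linear scale, not normalized, besides the flags used here. The authors' deposited table of log2 ratios, normalized by LOWESS per the study's methods, served as an alternative, and correlated with the ratios computed here at 0.987 to 0.995 per array, with column medians of -0.059 to -0.003. Its direction and scale matched the scanner output.

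In limma 3.58.1 (R 4.3.3), background was corrected by normexp with an offset of 50, fitted without spots whose local background lay over 10 MADs from the array median, and ratios were normalized by loess within arrays. The median was taken over repeat spots, and 0 spots were saturated. Probes had to be above background in the lung channel on at least 4 of 69 arrays. Symbols came from a RefSeq table (GRCm38.p6) by accession, which matched 27479 of 41174 probes, and a gene is the median of its probes. 1 fit of all 69 arrays with 14 group means gave 23 contrasts, with Benjamini-Hochberg adjustment over the 17628 genes of each contrast and calls at an adjusted p below 0.05. This fit, with its SEs and intervals, took the arrays as independent. The consensus correlation of arrays within slides, from the alternative with slide as a random block, was 0.47. The tests are 2-sided, except the F-tests. The fit was tested on simulated data with independent noise in each array and no slide effect. That test therefore cannot show how the calls behave where arrays share a slide.

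The members and all lists were chosen with earlier results of these data known. All 7 members were named throughout. Of other genes, called members of the fixed lists were named, besides Ms4a1 and Ms4a4b, and the 5 and 3 genes of highest correlation. Replicate numbers follow the accession order and only name arrays. The labels name a sample per mouse, and the number of arrays limits the precision. The alternatives were the authors' table, other background and normalization steps, other probe filters, the mean over probes, slide (18) or scan day (12) as a block, the arrays of 1 day alone, and leaving out each array in turn. A fit without the arrays of slides 4 and 6 was added after the data were seen. Sex and age of the animals are not given in the sources used here.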

Additional observations from a re-analysis of the deposited data

Results flagged for a closer look

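In 98 sets of values, 7 genes in each of 14 groups, 7 had a lung whose distance from the nearest other lung was larger than Dixon's 95% limit for its group, and chance gives about 1 such lung in 20 groups. In Tmem176a and Tmem176b the fifth lung with 162 µg of NRCWE-001 on day 1 was low, at 1.17 and 0.77. The first lung with 18 µg of NRCWE-001 on day 28, on slide 6, was high in both, at 1.68 and 1.50, and the second lung with 18 µg of NRCWE-002 on day 28, on slide 4, was high in Tmem176b, at 1.70. The fourth lung with 18 µg of NRCWE-001 on day 1 was high in Tmem176b, at 0.96. In vehicle lungs of day 1 the fourth was the highest in Ms4a7, at -0.12, with the next at -0.39.

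Between the particles, Ms4a4c on day 28 was 0.58 higher on the log2 scale with NRCWE-002 than with NRCWE-001 in the mean over doses, a difference past the threshold of the fit of all genes. The gene was chosen by these same values, so this is a description, and it was no longer past the threshold with the slide as a block, under the authors' table or without slides 4 and 6.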

How the results depend on the processing

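No called difference changed direction under any alternative run. The differences of Tmem176a and Tmem176b at 162 µg on day 1 were 0.87 to 1.09 across 12 alternatives and called in 11 of 12. Median centring in place of loess gave larger differences but 0 calls at 162 µg on day 1 for each particle, 0 in the F-test for NRCWE-001 and 1 for NRCWE-002. At 54 µg of NRCWE-002 on day 1 both genes of the pair, 2 in place of 0, were called with slide as a fixed or random block, with scan day as a block, among arrays of the same day and without slides 4 and 6. The share of all genes called higher there rose as well, from 0.0624% in the main fit to 0.981% with slide as a fixed block. With slide as a fixed block 1 was called at 54 µg of NRCWE-001 on day 1, beside 0.686% of all genes called higher. Between the particles at 54 µg on day 1, 1 was called with slide or scan day as a fixed block. With slide as that block, 0.0681% of all genes were called higher. The call of Ms4a4c between particles on day 28 was lost, with 0 called, under the authors' table, no background correction, processed signals, slide as either block, scan day, arrays of the same day and without slides 4 and 6, and a stricter probe filter gave 2. The F-test for NRCWE-001 on day 28 called 2, Ms4a6c and Ms4a7, with slide as a random block. In this F-test 0.477% of all genes were called in the main fit and 1.98% with slide as a fixed block. For alternatives other than slide as a fixed block, the share of all genes called was not computed. Of the 5 most alike genes 3 were shared without slide means and 1 by Spearman correlation. The causes were not tested.

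Leaving out 1 array at a time gave 0 to 2 calls at 162 µg on day 1 for each particle, 0 to 2 in the F-test for NRCWE-001 on day 1, 0 to 2 between particles on day 28, where the count differed in 24 of 30 fits, 0 to 1 at 162 µg of NRCWE-001 on day 28 and 0 to 2 in its F-test. Arrays of the same day cannot give the comparison of days. No paired analysis was possible because the labels carry no replicate numbers that link mice across groups. Of the members, signal over background limits Ms4a6b most, which was above background in the reference channel on 20 of 69 arrays. Outside the members, the probes of Ms4a4b were above it there on 11 to 39 arrays and those of Ms4a4d on 10 and 14.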
